A study of Rattus norvegicus with 12 samples.

Results

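The FoxO transcription factors and their target genes were described here in ND7/23 cells as a group of 10 genes, taken by symbol from a table of 21556 genes. The members were 3 factors (Foxo1, Foxo3 and Foxo4) and 7 genes that FoxO factors are known to activate or that belong to the same circuit (Fbxo32, Txnip, Ccng2, Sesn1, Sesn3, Irs2 and Pik3ip1). Fbxo32 was selected on its measured values in these same libraries, because it was lower with each single stimulus, and the other members ask whether that pattern was shared. The values of Fbxo32 are therefore a description and carry no test, and the tests concern the other members.

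ND7/23 is a single line made by fusing rat dorsal root ganglion cells with the mouse neuroblastoma N18Tg2, and it serves as a stand-in for sensory neurons. RNA was sequenced from 12 libraries in 4 groups of 3, all at 6 h. The groups were control, 100 µM menthol (which opens the cold channel TRPM8), 100 ng/ml Wnt3a (which activates β-catenin signalling) and the combination of menthol with Wnt3a. The study asked how TRPM8 activation and Wnt signalling act together in such cells. The labels give no genetic change in any group, and they do not say whether the cells had been differentiated or whether replicates were separate cultures, so the p-values below measure only the spread between these libraries.

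FoxO factors are forkhead transcription factors. When growth factors signal through PI3K and Akt, Akt phosphorylates FoxO, which then leaves the nucleus, and transcription of its targets declines. When that signal is low, FoxO enters the nucleus and activates genes of the cell cycle brake, stress resistance, metabolism and protein breakdown. The mRNA level of a factor is not a measure of its activity, which depends on phosphorylation and location.

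The 12 libraries held 36914010 to 38836269 reads on genes, and 16983 to 17386 genes were above 0. Levels are in FPKM, fragments scaled by gene length and library size, and 3 reads on a gene of 1 kb came to 0.0772 to 0.0813 FPKM. Of 15 neuron markers, 12 were below 0.5 FPKM in every library: Tubb3 (neuronal tubulin) did not exceed 0.0922 FPKM, while Isl1 and Uchl1 were present. Their summed level was 105.4 to 113.7 FPKM in control and 111.3 to 122.4 with menthol. It was 113.7 to 121.7 FPKM with Wnt3a and 114.6 to 126.8 with both. Uchl1 made up most of that sum, with a mean of 101.5 FPKM over the 12 libraries. The summed level of 10 fibroblast markers was 294.6 to 302.7 FPKM in control, 273.5 to 279.1 with menthol, 285.0 to 288.5 with Wnt3a and 271.9 to 280.3 with both.

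Promoter sequence was held for 6 of the 10 members (Foxo1, Foxo4, Ccng2, Sesn1, Sesn3 and Pik3ip1), from RefSeq on build GRCr8, whereas the expression table was made on mRatBN7.2. In the 300 bases from 250 before to 50 after the start, 2 motifs were searched on both strands: the forkhead element GTAAACA and the core of the insulin response element CAAAACA, each with its reverse complement. The first stood in 3.78% of 33469 rat promoters and the second in 6.28%. A match was found in 2 of the 6 (Ccng2 and Pik3ip1), and the 30 bases around each are shown because FoxO factors are known to read these letters. Capitals mark the motif.
Ccng2, minus strand, chr14:15097230-15097259: gcgtcgcagactCAAAACAaaaacaagggg
Pik3ip1, plus strand, chr14:82428303-82428332: ctaaagagaggcTGTTTACcagaagagcat
In Ccng2 the first base of the motif lay 57 bases before the start site. In Pik3ip1 the motif was on the opposite strand and began at the first transcribed base. A match is a run of letters and not a site shown to be bound.

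Fbxo32 (gene 171043) encodes atrogin-1, the substrate receptor of a ubiquitin ligase best known from wasting muscle, where FoxO1 and FoxO3 drive it. It was scarce here, with 13 to 38 reads per library on a gene model of 1053 bases. The 3 control libraries stood at 0.807, 0.873 and 0.934 FPKM, on 33, 35 and 38 reads. With menthol the values were 0.422, 0.373 and 0.370 FPKM, on 17, 15 and 15 reads, and with Wnt3a they were 0.395, 0.386 and 0.324 FPKM, on 16, 15 and 13 reads. Every library given 1 stimulus was below every control library. With both stimuli the values were 0.525, 0.905 and 0.824 FPKM, on 21, 37 and 33 reads. All 3 lay above every single-stimulus library and overlapped the control range.

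**Figure D1:**
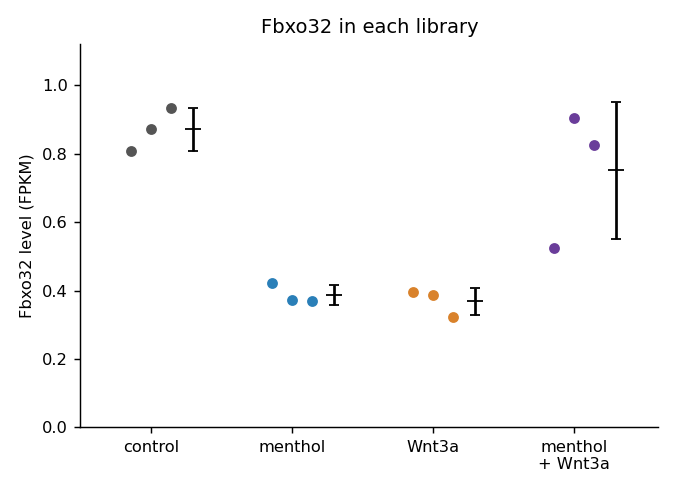
Level of Fbxo32 in FPKM (vertical axis, from 0) in each of the 12 libraries, grouped by treatment (horizontal axis); points are libraries, and the bar beside them is the mean with its SD (n = 3). Menthol and Wnt3a libraries sit between 0.324 and 0.422 FPKM, below all control libraries, and the libraries given both range from 0.525 to 0.905 FPKM.

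The mean level was 0.871 ± 0.0634 FPKM in control (SD, n = 3), 0.388 ± 0.0294 with menthol, 0.368 ± 0.0387 with Wnt3a and 0.751 ± 0.200 with both. In control, menthol and Wnt3a the reads varied less between libraries than random counting of so few reads would give. These SDs, of a gene chosen on its values, therefore understate its uncertainty. The menthol mean was 44.6% of control, the Wnt3a mean 42.3% and the mean with both 86.2%. On the scale of log2(FPKM + 0.1), on which all changes below are given and which understates the change of scarce genes, Fbxo32 was at -0.99 with menthol, -1.05 with Wnt3a and -0.22 with both relative to control. The size depends on the constant added: with 1 FPKM in place of 0.1 the values were -0.43, -0.45 and -0.10. With both stimuli it was 0.77 above menthol alone and 0.84 above Wnt3a alone. The value with both rests partly on its first library, without which the change from control was -0.01 and the change from Wnt3a 1.05. In bulk RNA, fewer cells that make a transcript and less of it per cell cannot be told apart.

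Skeletal muscle markers were mostly near absent. Of 16 muscle markers, 12 were below 0.5 FPKM in every library, and the summed level of the list was 9.16 to 10.7 FPKM in control, 9.18 to 11.2 with menthol, 11 to 12.3 with Wnt3a and 8.92 to 11.6 with both. The Wnt3a range lay above control, and the others overlapped control. Most of the sum was 1 gene, Tnnt3, with a mean of 7.75 FPKM in control and 8.16 with Wnt3a. Scarcer markers went either way with Wnt3a, Mb from 0.32 to 0.981 FPKM and Acta1 from 0.234 to 0.189. The sum therefore does not describe the list as a whole. Trim63, which encodes the muscle ligase MuRF1 and is the usual partner of Fbxo32 in wasting, ranged from 0.134 to 0.464 FPKM and was below the expression minimum. The summed fibroblast markers were lower than control in all 3 treated groups, also with both stimuli, and the part of either list in the Fbxo32 values was not tested.

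Among the 8 other members tested, the lowest bound of any 95% interval was -0.36 with menthol (Sesn1) and -0.43 with Wnt3a (Irs2) on the log2 scale. With 1 FPKM added, where Fbxo32 stood at -0.43 and -0.45, these bounds were -0.31 and -0.34. Fbxo32 was chosen for its low values and has no interval, so its size was not tested against that of the others. Of the 9 members at or above a mean of 0.5 FPKM, the 8 besides Fbxo32 were tested with limma across all 11451 genes at or above that mean. The counts below use an adjusted p (Benjamini-Hochberg over all tested genes) under 0.05, with no limit on size, beside the share of all tested genes that met the same rule. With menthol 0 of 8 passed, against 0.105% of all genes, and 1 of 8 had an unadjusted p under 0.05, against 9.34%. With Wnt3a 0 of 8 passed, against 0.437%, and 1 of 8 had an unadjusted p under 0.05, against 15.1%. With both stimuli 0 of 8 passed, against 0.83%, and 0 of 8 had an unadjusted p under 0.05, against 13.5%. Limma voom on the recovered reads also passed 0 of 8 in each of these comparisons, against 0.524%, 2.65% and 2.28% of all genes. By voom 1, 2 and 2 members had an unadjusted p under 0.05. The share of all genes at that voom p is not given here, so these counts cannot be read against it. In each comparison with control 4 of the 8 were higher and 4 lower, with a median log2 change of -0.03 for menthol, -0.02 for Wnt3a and 0.03 for both, beside medians over all genes of -0.0016, 0.0042 and 0.0040.

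**Figure D2:**
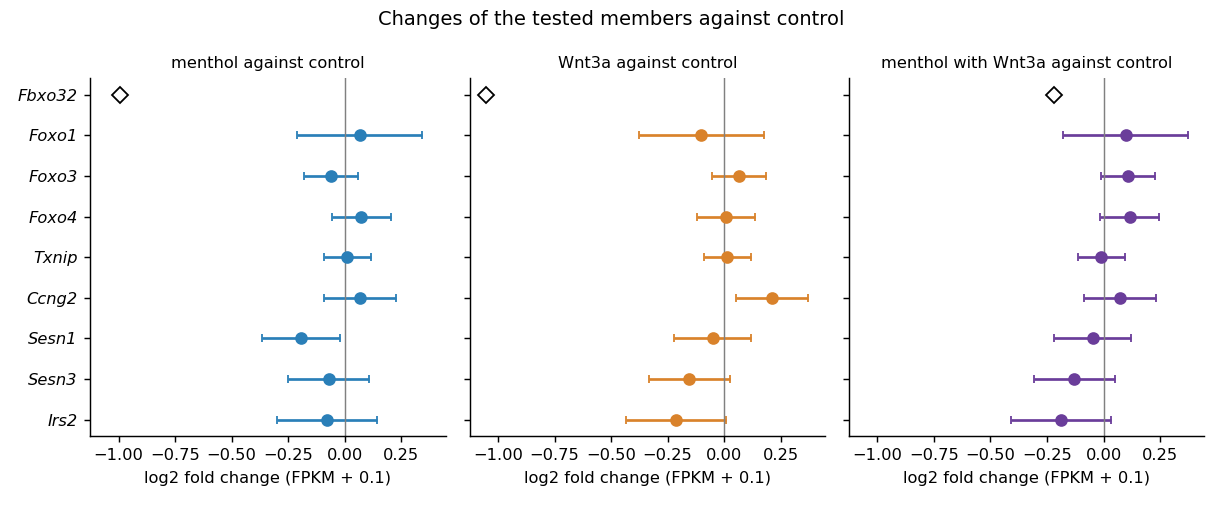
Change from control on the scale of log2(FPKM + 0.1) (horizontal axis) for each member (rows) with menthol, Wnt3a and both; filled points are limma estimates with 95% confidence intervals (n = 3 libraries per group), and the open diamond is Fbxo32, shown without an interval because it was chosen on these values. The estimates of the 8 tested members lie between -0.21 and 0.21, and Fbxo32 lies at -0.99, -1.05 and -0.22.

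Among the factors, Foxo4 (gene 302415) and Foxo3 (gene 294515) were the more abundant, at 7.92 and 6.32 FPKM over the 12 libraries, and Foxo1 (gene 84482) was at 0.817 FPKM. Foxo1, a main regulator of glucose metabolism, stood at 0.781, 0.778 and 0.858 FPKM in control, 0.809, 0.863 and 0.869 with menthol, 0.703, 0.708 and 0.824 with Wnt3a, and 0.913, 0.783 and 0.915 with both. Every pair of groups overlapped. The log2 change with Wnt3a was -0.10 (95% interval -0.38 to 0.17, adjusted p = 0.755) and that with menthol was 0.06 (-0.21 to 0.34, adjusted p = 0.917).

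Foxo3, linked to stress resistance and to the atrophy programme of muscle, stood at 6.26, 6.07 and 6.22 FPKM in control, 5.93, 5.70 and 6.13 with menthol, 6.46, 6.12 and 6.89 with Wnt3a, and 6.78, 6.48 and 6.77 with both. The 3 libraries given both stimuli were above all control and all menthol libraries. Against menthol the log2 difference was 0.17 (SE 0.0557, unadjusted p = 0.00846, adjusted p = 0.488), and against control it was 0.11 (SE 0.0557, adjusted p = 0.422). Neither passed the threshold.

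Foxo4 stood at 7.52, 8.42 and 7.05 FPKM in control, 8.13, 7.92 and 8.09 with menthol, 7.42, 8.01 and 7.64 with Wnt3a, and 8.12, 8.46 and 8.27 with both. The control range held the whole of the menthol and Wnt3a ranges, and the libraries given both were above all Wnt3a libraries. The log2 difference between both and Wnt3a was 0.11 (SE 0.0605, adjusted p = 0.437).

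**Figure D3:**
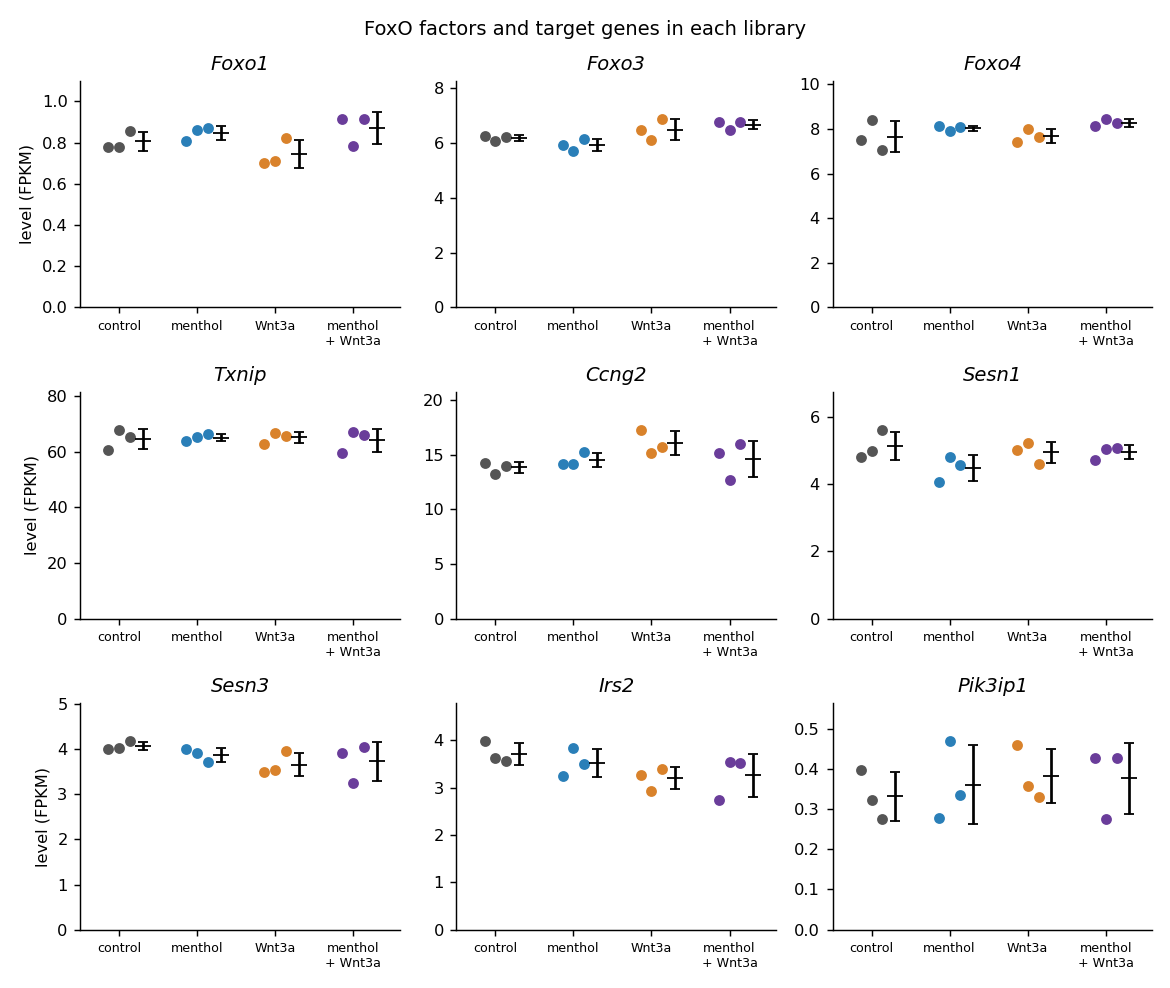
Level in FPKM (vertical axes, each from 0) of the 3 FoxO factors and 6 targets in each of the 12 libraries, by treatment (horizontal axes); points are libraries and bars are means with SD (n = 3). The group means of each gene differ by at most 1.17 times between the highest and the lowest group.

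Txnip (gene 117514) encodes thioredoxin-interacting protein, a brake on glucose uptake and a partner of thioredoxin. It was the most abundant member at 64.7 FPKM, on 6200 to 7142 reads. Control libraries stood at 60.7, 67.8 and 65.2 FPKM, menthol at 63.7, 65.2 and 66.2, Wnt3a at 62.9, 66.8 and 65.6, and both at 59.4, 67.0 and 65.9. All 4 groups overlapped, and the group means differed by at most 1.02 times. The log2 change with menthol was 0.01 (95% interval -0.09 to 0.11) and with Wnt3a 0.01 (-0.09 to 0.12).

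Ccng2 (gene 29157) encodes cyclin G2, an unusual cyclin that slows the cell cycle and whose promoter carried one of the motifs shown above. Control libraries stood at 14.2, 13.3 and 13.98 FPKM, menthol at 14.2, 14.1 and 15.2, Wnt3a at 17.3, 15.1 and 15.8, and both at 15.2, 12.7 and 15.9. The Wnt3a libraries were all above control, in the direction opposite to Fbxo32, and the libraries given both overlapped every group. The log2 change with Wnt3a was 0.21 (SE 0.0739, unadjusted p = 0.0130), which did not pass over all genes (adjusted p = 0.197).

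The sestrins are stress-induced proteins that restrain mTORC1. Sesn1 (gene 294518) stood at 4.82, 4.98 and 5.62 FPKM in control, 4.07, 4.80 and 4.58 with menthol, 5.02, 5.24 and 4.61 with Wnt3a, and 4.73, 5.06 and 5.09 with both. The menthol libraries were all below control, by a narrow gap, and the other treated groups overlapped control. The log2 change with menthol was -0.19 (SE 0.0793, unadjusted p = 0.0288, adjusted p = 0.488).

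Sesn3 (gene 315427) stood at 4.01, 4.03 and 4.18 FPKM in control, 4, 3.91 and 3.71 with menthol, 3.49, 3.53 and 3.95 with Wnt3a, and 3.91, 3.24 and 4.04 with both. It was the only tested member besides Fbxo32 whose libraries with each single stimulus were all below control. The log2 changes were -0.07 with menthol (adjusted p = 0.846) and -0.15 with Wnt3a (95% interval -0.33 to 0.03, adjusted p = 0.418), and unlike Fbxo32 the libraries given both did not lie above the single stimuli.

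Irs2 (gene 29376) encodes insulin receptor substrate 2, an adaptor through which FoxO feeds back on insulin signalling. It stood at 3.99, 3.62 and 3.56 FPKM in control, 3.24, 3.83 and 3.51 with menthol, 3.27, 2.94 and 3.40 with Wnt3a, and 2.74, 3.54 and 3.52 with both. The Wnt3a libraries and the libraries given both were all below control, and menthol overlapped it. The log2 changes were -0.21 with Wnt3a (SE 0.103, adjusted p = 0.356) and -0.19 with both (SE 0.103, adjusted p = 0.451).

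Pik3ip1 (gene 305472) encodes an inhibitor of PI3K, and its start region carried the other motif. Its mean of 0.363 FPKM was under the minimum, on 38 to 64 reads. Control libraries stood at 0.396, 0.324 and 0.275 FPKM, menthol at 0.278, 0.469 and 0.334, Wnt3a at 0.458, 0.356 and 0.330, and both at 0.427, 0.274 and 0.427. All groups overlapped. In a fit without the minimum the log2 changes were 0.08, 0.16 and 0.13 with menthol, Wnt3a and both (adjusted p = 0.992, 0.849 and 0.902).

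Counted over the 8 tested members, the groups did not overlap for 2 with menthol (Sesn1 and Sesn3, both lower), against 15.9% of all tested genes, for 3 with Wnt3a (Ccng2 higher, Sesn3 and Irs2 lower), against 20.2%, and for 2 with both (Foxo3 higher, Irs2 lower), against 20.5%. With 8 genes, 1 gene moves such a share by 12.5 percentage points.

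The comparisons between the treated groups asked whether any member was, like Fbxo32, higher with both stimuli than with 1. Against Wnt3a alone 0 of 8 passed (0.0524% of all genes), 0 of 8 had an unadjusted p under 0.05 (14.5%), and 1 did not overlap (Foxo4, higher; 17.7%). Against menthol alone 0 of 8 passed (0.0961%), 1 of 8 had an unadjusted p under 0.05 (Foxo3; 6.72%), and that gene alone did not overlap (11.3%). Voom passed 0 of 8 in both, with 1 member at an unadjusted p under 0.05 in each. The difference of the menthol effect with and without Wnt3a was 1.83 for Fbxo32 on the log2 scale (0.78 with 1 FPKM added), and for the 8 others it lay between -0.21 (Ccng2) and 0.20 (Sesn1). In that test limma passed 0 of 8 members and 0% of all genes, with 0 of 8 members and 6.99% of genes at an unadjusted p under 0.05. There voom passed 0 genes. It had 1 member at an unadjusted p under 0.05, again with no share of all genes given.

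Across the 12 libraries, the correlation of each member with Fbxo32 on the log2 scale was highest for Sesn1 (Pearson r = 0.517, place 480 of 11450 genes) and Irs2 (0.373). Sesn3, Foxo1, Foxo3, Txnip and Foxo4 followed between 0.178 and 0.0643, and Ccng2 was negative (r = -0.553, place 11062). These values describe 12 libraries that fall into 4 groups and carry no test. The 5 genes most like Fbxo32 were Bmp1, a procollagen protease (r = 0.867), Pcdh19, a protocadherin (0.852), Dpp3, a dipeptidyl peptidase (0.816), Mturn (0.814) and Kcnk5, a potassium channel (0.813). Their differences were smaller than that of Fbxo32: Kcnk5 went from a mean of 1.47 FPKM in control to 1.12 with menthol, 1.11 with Wnt3a and 1.32 with both, and Bmp1 from 17.4 to 16.3, 16.1 and 16.9 FPKM.

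The full pattern of Fbxo32, with every control library and every library given both stimuli above every single-stimulus library, was met by 8 of 11451 tested genes (0.0699%), and the reverse pattern by 13 (0.114%). The 8 were Dcaf5, Fbxo32, Gadd45b, Kcnk5, Plcb3, Prkx, Scamp1 and Tab2. No other member was among them, and Gadd45b, a stress-response gene, was the only further gene of the FoxO target list described next. Its log2 change was -0.19 with menthol (adjusted p = 0.474), -0.12 with Wnt3a (0.470) and 0.06 with both (0.784), so none passed with limma.

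Genes around the members were read from 3 lists. The first held 65 other genes reported as FoxO targets, of which 54 were tested. With menthol limma passed 0 (0.105% of all genes) and voom 0 (0.524%). At an unadjusted p under 0.05 were 7 higher and 3 lower (18.5% of the list, beside 9.34% of all genes). With Wnt3a 1 rose and 0 fell by limma (0.437% of all genes), and voom passed 4 (2.65%). At an unadjusted p under 0.05 were 8 higher and 5 lower (24.1%, beside 15.1%). With both 1 rose and 1 fell by limma (0.83% of all genes), and voom passed 3 (2.28%). At an unadjusted p under 0.05 were 10 higher and 4 lower (25.9%, beside 13.5%). The list had 33 genes higher and 21 lower with menthol, 28 and 26 with Wnt3a, and 31 and 23 with both, with median log2 changes of 0.012, 0.0075 and 0.0092.

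The second list held 66 genes that act on FoxO (receptors, PI3K and Akt components, kinases, phosphatases, acetylases and deacetylases), of which 59 were tested. With Wnt3a 39 of the 59 were lower and 20 higher, with a median log2 change of -0.04, beside 5538 lower of 11451 and a median of 0.0042 over all genes. Of the 59, 1 fell and 0 rose by limma, beside 0.437% of all genes, and voom passed 4, beside 2.65%. At an unadjusted p under 0.05 were 14 lower and 1 higher (25.4%, beside 15.1%). Some of the lower genes, chosen after their values were seen, were Igf1r, the IGF1 receptor, at -0.23 (adjusted p = 0.179), Pik3r1, a regulatory subunit of PI3K, at -0.14 (0.216), and Crebbp, an acetylase, at -0.27 (0.206). With menthol and with both the median log2 changes were 0.0048 and -0.00057, and 0 passed in either by limma (0.105% and 0.83% of all genes). An unadjusted p under 0.05 was held by 3 and 5 of 59 (5.08% and 8.47%, beside 9.34% and 13.5% of all genes). There voom passed 0 and 1, beside 0.524% and 2.28% of all genes.

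**Figure D4:**
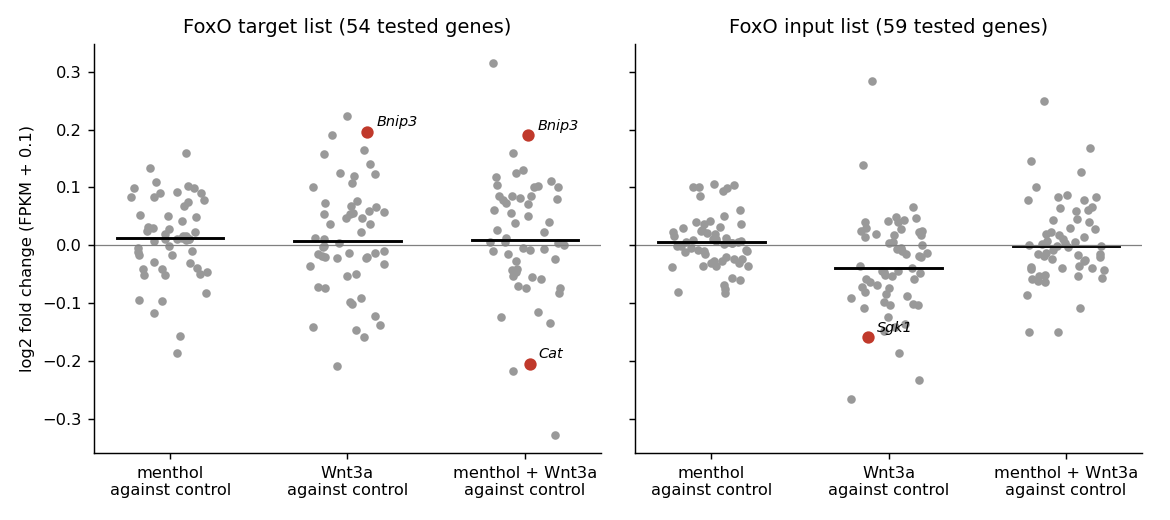
Change from control on the scale of log2(FPKM + 0.1) (vertical axis) of each tested gene of the list of other FoxO targets (left, 54 genes) and of the list of genes that act on FoxO (right, 59 genes) with menthol, Wnt3a and both (horizontal axis). Grey points are genes, red points passed at an adjusted p under 0.05, and the black line is the median, which is -0.04 for the input list with Wnt3a.

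The third list, the genes that the table assigns to the KEGG FoxO pathway, held 129 genes without Fbxo32, including 5 of the other members, and 105 were tested. With menthol 0 passed by limma or voom (0.105% and 0.524% of all genes). An unadjusted p under 0.05 was held by 12 (11.4%, beside 9.34% of all genes). With Wnt3a 1 rose and 2 fell by limma (0.437% of all genes), and voom passed 10 (2.65%). With both 1 rose and 1 fell by limma (0.83% of all genes), and voom passed 3 (2.28%). At an unadjusted p under 0.05 were 23 genes with Wnt3a, 7 higher and 16 lower, and 18 with both, 10 higher and 8 lower. These were 21.9% and 17.1% of the list, beside 15.1% and 13.5% of all genes. Between the treated groups limma passed 0 genes of each list, beside 0.0524% of all genes against Wnt3a and 0.0961% against menthol. Against Wnt3a alone 6, 9 and 14 genes of the target, input and KEGG lists had an unadjusted p under 0.05 (11.1%, 15.2% and 13.3%, beside 14.5% of all genes), and voom passed 1, 1 and 2, beside 143 of all 11451 genes. At the unadjusted p, 5, 9 and 13 were higher with both and 1, 0 and 1 lower, beside 816 and 844 over all genes. At any p, 25 of 54, 40 of 59 and 66 of 105 were higher, beside 5641 of 11451. The same Wnt3a libraries enter this comparison and Wnt3a against control, so the 2 are not independent. Against menthol alone the unadjusted counts were 8, 4 and 14 (14.8%, 6.78% and 13.3%, beside 6.72% of all genes), with 5, 1 and 9 higher and 3, 3 and 5 lower. There voom passed 1, 0 and 0, beside 0.288%. The KEGG list shared 23 genes with the target list and 41 with the input list, so the lists do not give separate counts.

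The genes behind the limma calls were 4. Bnip3, a mitophagy receptor and FoxO3 target, stood at 136.3, 135.4 and 134.6 FPKM in control, 147.7, 147.5 and 141.3 with menthol, 158.9, 152.4 and 154.5 with Wnt3a, and 157.7, 152.8 and 153.4 with both. All treated libraries were above control, and Bnip3 rose with Wnt3a by 0.20 (SE 0.0274, adjusted p = 0.00875) and with both by 0.19 (SE 0.0274, adjusted p = 0.0040). With menthol the change was 0.10 (adjusted p = 0.241). In the Wnt3a libraries Bnip3 was thus above control and Fbxo32 below it. Without control replicate 3 or Wnt3a replicate 1 the Wnt3a call was lost (adjusted p = 0.0511 and 0.0635).

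Cat, the peroxide-degrading enzyme catalase, stood at 78.5, 78.4 and 76.6 FPKM in control and 64.0, 71.0 and 67.7 with both. The groups did not overlap, and Cat fell by 0.21 on the log2 scale with both (SE 0.0362, adjusted p = 0.0169). Its level was 70.9 to 75.2 FPKM with menthol and 70.1 to 71.2 with Wnt3a (adjusted p = 0.426 and 0.102). The call was lost without control replicate 1, control replicate 2 or the third library given both (adjusted p = 0.0860, 0.0749 and 0.0658), and when only the groups compared were fitted (adjusted p = 0.0722).

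Sgk1, a kinase related to Akt that phosphorylates FoxO3, stood at 56.6, 57.8 and 55.3 FPKM in control and 51.2, 50.7 and 50.1 with Wnt3a, and Stat3, a transcription factor of cytokine signalling, at 63.9, 61.1 and 61.3 and at 54.6, 54.2 and 57.4. In both genes the Wnt3a libraries were all below control. Sgk1 fell by 0.16 (SE 0.0299, adjusted p = 0.0444) and Stat3 by 0.17 (SE 0.0325, adjusted p = 0.0473). Both calls are near the threshold and were lost when most single libraries were left out, with an adjusted p over all alternatives of 0.00994 to 0.167 for Sgk1 and 0.00773 to 0.218 for Stat3. With both stimuli the levels were 52.1 to 54.9 FPKM for Sgk1 and 58.9 to 61.4 for Stat3.

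**Figure D5:**
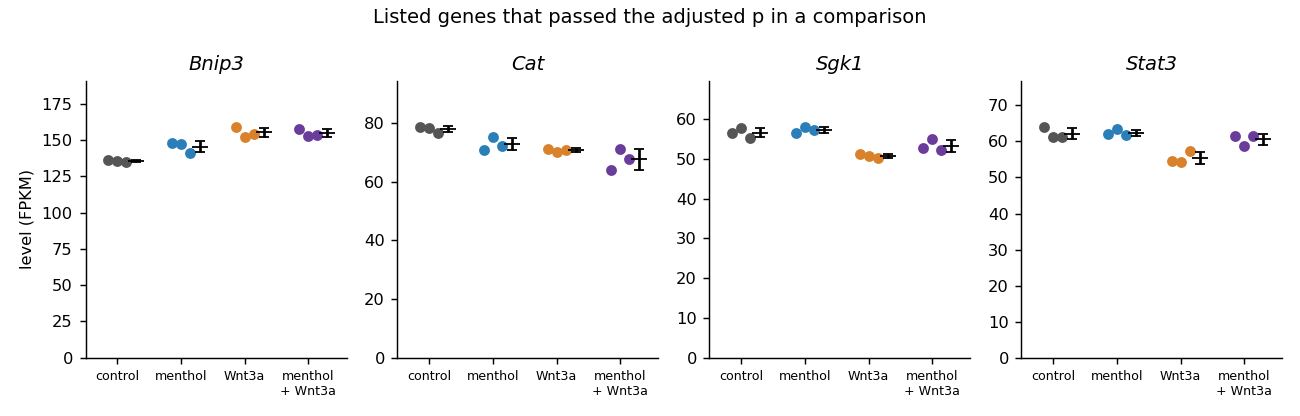
Level in FPKM (vertical axes, each from 0) of Bnip3, Cat, Sgk1 and Stat3 in each of the 12 libraries, by treatment (horizontal axes); points are libraries and bars are means with SD (n = 3). Bnip3 is 152.4 to 158.9 FPKM with Wnt3a against 134.6 to 136.3 in control, while Sgk1 and Stat3 are lower with Wnt3a than in control.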

How the data were processed

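By their methods, the authors used TRIzol for extraction, fastp for read filtering, HISAT for alignment and HTSeq for counting, and deposited FPKM per gene and library. The authors ran their own comparisons with DESeq2. The submitters' processing notes name the build mRatBN7.2. How reads of mouse transcripts were assigned in the hybrid line is not given in the sources used here. Whole reads were recovered for 21556 of 21556 genes (tolerance 1e-09).

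Genes with a mean of 0.5 FPKM or more were tested with limma 3.58.1 (R 4.3.3) on log2 values after adding 0.1, all 12 libraries in 1 fit, a variance trend and Benjamini-Hochberg adjustment over 11451 genes. The script was tested on simulated data. No limits for counting error are printed. Taken over all genes with enough reads, every pair of replicates differed by more than sampling noise (chi-square per degree of freedom 3.48 to 7.27). Abundant genes weigh most in this measure, and it does not describe scarce ones such as Fbxo32. The members and gene lists were chosen with earlier results of these data known, so no list was tested as a set. The rule for named genes took all members, at most 5 passing genes per list and the 5 genes most like Fbxo32. Igf1r, Pik3r1, Crebbp, Trim63 and the genes with the full pattern of Fbxo32 were named outside it, after their values were seen. Alternatives were other pseudocounts and minimums, voom on recovered reads, median centring, only the groups compared, a replicate block, a 2-fold limit and leaving out each library.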

Additional observations from a re-analysis of the deposited data

Results flagged for a closer look

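Fbxo32 moved in opposite directions under the same contrast. Menthol libraries were all below control without Wnt3a and all above Wnt3a alone in its presence, a difference of 1.83 between the 2 menthol effects on the scale of log2(FPKM + 0.1). The Wnt3a effect without and with menthol differed by the same 1.83, since both are the same quantity over the 4 groups. The difference was not tested, because Fbxo32 was chosen on these values, and it rests on 13 to 38 reads per library. Groups of 3 libraries were too small to look for single libraries that stand apart.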

How the results depend on the processing

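Of the 8 tested members 0 passed in any of the 6 comparisons under any alternative, the smallest adjusted p being 0.0958 (Wnt3a against control). A few directions turned when 1 library was left out. Foxo4 with Wnt3a ranged from -0.050 to 0.077 (turned without control replicate 1, control replicate 3 or Wnt3a replicate 2). Txnip ranged from -0.033 to 0.047 with menthol, from -0.031 to 0.049 with Wnt3a and from -0.055 to 0.042 with both (turned with menthol without control replicate 1 or menthol replicate 3, with Wnt3a without control replicate 1 or Wnt3a replicate 2, and with both without control replicate 2 or the first library given both). Sesn1 ranged from -0.095 to 0.014 with Wnt3a and from -0.093 to 0.016 with both (turned without control replicate 3). For Fbxo32 a pseudocount of 1 gave -0.43 with menthol, -0.45 with Wnt3a and 0.78 for the interaction.

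Counts of listed genes moved more. For the target list with Wnt3a voom passed 4, the 2-fold limit 0, and leaving out single libraries 0 to 2. With both, fitting only the groups compared passed 1, the 2-fold limit 0 and left-out libraries 1 to 3. Voom passed 1 against Wnt3a and 1 against menthol, where left-out libraries gave 0 to 1. For the input list with Wnt3a no minimum passed 0, only the groups compared 0, voom 4, the 2-fold limit 0 and left-out libraries 0 to 3. Voom passed 1 with both and 1 against Wnt3a, where left-out libraries gave 0 to 1. For the KEGG list with Wnt3a no minimum passed 1, only the groups compared 1, voom 10, the 2-fold limit 0 and left-out libraries 0 to 7. With both, only the groups compared passed 1, the 2-fold limit 0 and left-out libraries 1 to 2, and voom passed 2 against Wnt3a. The cause was not tested.

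Same-number libraries of different groups deviated together only weakly (correlations -0.0551 to 0.153, 1 of 18 over 0.1). Different-number correlations ran from -0.157 to 0.1145. Replicate numbers were not used as pairs in the main fit. With a replicate block 24 of 24 counts stayed within 1.5 times, 0 of 8 members passed, and the KEGG count with Wnt3a was 2, since Stat3 was lost (adjusted p = 0.0562). Fbxo32 (13 to 38 reads per library) and Pik3ip1 (38 to 64) rest on few reads, which limits what could be seen in them.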
